A study of Mus musculus with 24 samples.

Results

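SmcHD1-mutant (KO) mouse embryonic stem cells (mESCs) were compared with the wild-type (WT) mESCs they were made from. The comparison covers the genes outside the X and Y chromosomes whose mean level over the 6 mESC libraries, 3 of each genotype, was at least 1 FPKM, a read count divided by transcript length and by the number of mapped reads. Of 23119 genes listed, 22028 lay outside X and Y, 16533 of these were above 0 in at least 1 mESC library, and 11103 met this rule and were tested. SMCHD1 is a noncanonical member of the SMC (structural maintenance of chromosomes) protein family with an ATPase domain of the GHKL type. It is best known for keeping the inactive X chromosome silent, and it also represses Hox genes, clustered protocadherin genes and some imprinted genes on autosomes. Both X chromosomes are still active in female mESCs, so the comparison concerns the autosomes of cells in which X inactivation has not begun.

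Both lines are JB4/EI7HZ2 cells, a female mouse line derived by crossing strains JF1 and B6, grown on gelatin in serum medium with LIF and inhibitors of MEK and GSK3 (2i), with G418 and zeocin to keep both X chromosomes. The KO is 1 CRISPR–Cas9 line with small frameshifting deletions in an early exon of both Smchd1 alleles. WT and KO are therefore 1 line each, so an effect of the mutation and any other difference between the lines cannot be told apart. The study sequenced poly(A) RNA of both lines also as day 7 and day 9 differentiated cells and as neural stem cells (NSCs), 3 libraries per group and 24 in all. These later stages served here to estimate the spread between libraries and to place the mESC differences. The deposited labels do not say whether the replicates were separate cultures, while the study speaks of independent experiments, so the p-values measure the spread between these libraries.

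The 6 mESC libraries were of like depth. The relative number of reads ran from 0.883 in KO 3 to 1.09 in WT 1 (mean library near 1), the summed FPKM from 740491 to 802938, and the lowest correlation of log2 values within a genotype was 0.962. Both lines had the markers of pluripotent cells at high level: Pou5f1, the core pluripotency factor OCT4, was at 1240, 1453 and 1384 FPKM in the WT libraries and at 1322, 1532 and 1526 FPKM in the KO libraries, and no marker of naive pluripotency passed the test among the 30 tested. Of the markers of other cell types some were expressed. Of the neurectoderm list 4 of 17 genes reached the level for testing, of the mesoderm list 4 of 14, of the fibroblast list 5 of 19 and of the primitive endoderm list 12 of 22, with the highest member of each list at a mean of 112, 9.95, 160 and 196 FPKM in that order. The serum proteins Afp and Ttr, markers of visceral endoderm, were listed at 0 in all 6 libraries.

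The targeted gene was the clearest difference. Smchd1 (mm9, chr17:71693834-71824683) was at 13.9, 13.8 and 12.96 FPKM in the WT libraries and at 2.71, 2.97 and 1.82 FPKM in the KO libraries. Every KO library lay far below every WT library, and the fall by 2.07 on the log2(FPKM + 1) scale (SE 0.13, limma adjusted p = 1.51e-09) was the only one that a fit of the 6 mESC libraries alone also called. The KO transcript did not vanish, with a mean of 2.50 ± 0.602 FPKM (SD, n = 3) against 13.5 ± 0.502 FPKM, a ratio of 0.185. The same gene fell by 2.41 at day 7, by 2.18 at day 9 and by 1.96 in NSCs on this scale.

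Around this gene the change was small. At an adjusted p under 0.05 (limma, all 24 libraries, Benjamini-Hochberg adjustment) 79 of 11103 genes were called, 19 higher in KO mESCs (0.171% of those tested) and 60 lower (0.54%). Only 23 changed by at least 1 on the log2 scale, 6 upwards and 17 downwards, and the WT and KO libraries did not overlap for 76 of the 79. Over all tested genes every KO library lay above every WT library for 5.49% and below for 5.73%, and 962 genes had an unadjusted p under 0.05 (8.66%). The called genes included 5 entries of the Hox clusters and Cdx2 among those that rose, and a block of neighbours at the end of chromosome 3 that made up 20 of the 60 that fell. Most of the others belonged to none of the gene lists described here.

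These calls rest on a spread estimated for each gene over mESCs and the later stages together. For a gene nearly silent later, the later groups add little spread, which lowers its SE. Gm694, Hoxa9 and Hoxc11, described below, are such genes. In the 6 mESC libraries alone their limma adjusted p was 0.186, 0.683 and 0.690. The median SD of replicates lay between 0.120 (day 9) and 0.192 (NSCs) on the log2 scale over the stages, and 0.190 in mESCs. With a weight for each stage 24 genes were called, in the 6 mESC libraries alone 1 (0.00901%, with 593 at an unadjusted p under 0.05), and 177 once each replicate number was fitted as a block, among them all 79 (57 higher, 0.513%, and 120 lower, 1.08%). Without KO 3 the count was 39 and without WT 2 it was 164.

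**Figure D1:**
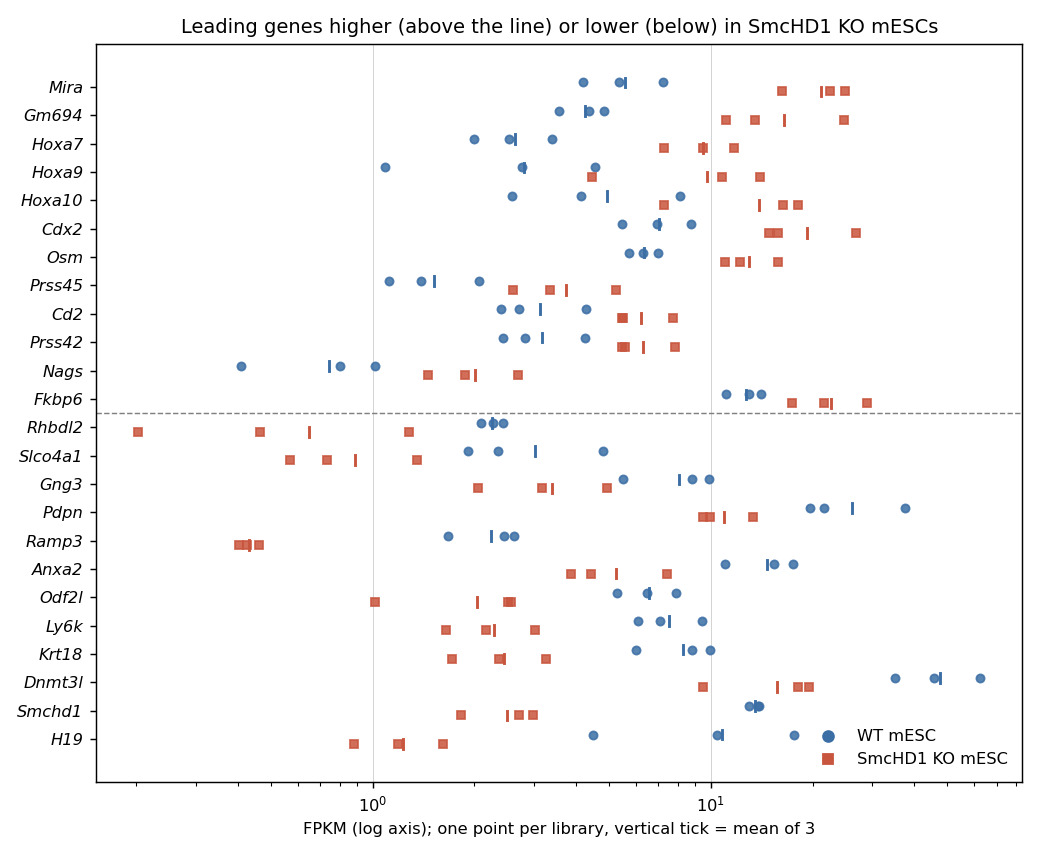
FPKM on a log axis for the 12 called genes with the largest rise (above the dashed line) and the 12 with the largest fall (below it) in SmcHD1 KO mESCs, among those at a mean of 2 FPKM or more in the higher group. Each point is 1 library (circles WT, squares KO) and each short vertical line the mean of 3. Smchd1, Ramp3 and Dnmt3l show wide gaps between the genotypes, while Hoxa9 and Hoxa10 overlap in 1 WT and 1 KO library.

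The first set that rose lay in the Hox clusters. Hox genes encode homeobox transcription factors that set position along the body axis and are kept silent in mESCs by Polycomb complexes. Of the 59 symbols in the Hox list, which holds the noncoding Mira too, 15 reached the level for testing, 5 of them were called higher (0.171% of all tested genes), none lower, and 14 lay above 0, with a median log2 difference of 0.41 against 0.01 for all tested genes. Leaving out a library moved that median between 0.16 (without KO 1) and 0.69 (without WT 1), and its sign was the same under both other scalings. The members by level were low, with means over the 6 libraries between 1.09 and 13.4 FPKM.

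Hoxa7 was at 2.52, 1.99 and 3.40 FPKM in the WT libraries and at 9.51, 7.29 and 11.7 FPKM in the KO libraries. All KO libraries were above all WT libraries, a rise of 1.53 (SE 0.28, adjusted p = 0.00827) or 3.604 times the WT mean. Mira, a noncoding transcript that the table places just beside Hoxa7 and the GENCODE annotation within it, moved in step, from 4.19, 7.22 and 5.34 FPKM in WT to 22.5, 16.2 and 24.9 FPKM in KO (1.76, SE 0.34, adjusted p = 0.0141). The loci of both do not overlap in the deposited table.

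Hoxa9 was at 4.54, 1.09 and 2.77 FPKM in WT and at 13.99, 4.47 and 10.8 FPKM in KO, and Hoxa10 at 8.10, 2.59 and 4.13 FPKM in WT and at 18.1, 7.29 and 16.4 FPKM in KO. In both genes replicate 1 was the highest and replicate 2 the lowest of each genotype, so the groups overlapped by 1 library although each KO library exceeded the WT library of the same number. Their rises were 1.49 (SE 0.29, adjusted p = 0.0126) and 1.34 (SE 0.27, adjusted p = 0.0163). Hoxc11, on another chromosome, rose from 1.08, 0.287 and 0.298 FPKM to 1.82, 1.73 and 1.32 FPKM without overlap (0.79, SE 0.15, adjusted p = 0.00913). With a WT mean of 0.554 FPKM it reached the level for testing only through the KO libraries.

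The other tested Hox genes did not pass. With the replicate block Hoxc12 (0.41, adjusted p = 0.0986 without the block and 0.0266 with it) and Hoxc10 (0.62, adjusted p = 0.242 and 0.0017) were called too. Of 27 Hox entries below the level for testing 14 had the higher mean in KO and 10 in WT, and a fit with no filter on low values called 1 of them, Hoxa11, higher (0.29% of the genes in that fit were called higher). Of the 5 calls none was kept with a pseudocount of 0.1 in place of 1, which weighs low levels more, and 3 (Hoxa9, Hoxa10 and Hoxc11) were kept with a weight for each stage. Leaving out 1 library left between 1 (without KO 3) and 4 of the 5 calls, with 2 left without KO 1 and 3 without WT 3.

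Cdx2, the caudal-type homeobox factor that drives trophectoderm and posterior axis genes, rose with them. It was at 6.92, 8.75 and 5.46 FPKM in WT and at 26.9, 15.8 and 14.9 FPKM in KO (1.30, SE 0.19, adjusted p = 0.00121), without overlap and with the call kept in every fit that left out 1 library. Cdx2 was the only called member of a list of Wnt target genes, of which 14 of 19 symbols were tested (0.171% of all tested genes were called higher). Wnt signalling is active in 2i medium because the GSK3 inhibitor stabilises β-catenin. Of the 14 genes 12 lay above 0, with a median of 0.49, and in 6 every KO library exceeded every WT library (5.49% of all genes).

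Apart from Cdx2 the Wnt targets stayed short of the threshold. Sp5, a zinc-finger factor induced by β-catenin, was at 31.9, 54.8 and 42.2 FPKM in WT and at 83.6, 80.7 and 89.4 FPKM in KO (0.99, SE 0.24, adjusted p = 0.0522, and 0.0392 with the replicate block). Lef1, a DNA-binding partner of β-catenin, was at 17.7, 19.8 and 15.2 FPKM in WT and at 31.0, 34.0 and 33.4 FPKM in KO (0.87, SE 0.23, adjusted p = 0.0894). Both were separated by library, as was Axin2, a feedback inhibitor of the pathway, at 14.8 to 16.8 FPKM in WT and 20.7 to 33.2 FPKM in KO (0.78, adjusted p = 0.105). Summed over the 14 genes the level was 224 to 292 FPKM in the WT libraries and 383 to 402 FPKM in the KO libraries.

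The sequences before the start sites of some of these genes are shown because SMCHD1 is known to be needed for the methylation of CpG islands on the inactive X chromosome. They are the 250 bases upstream of the start in RefSeq on GRCm38.p6, a later build than that of the expression table, written 5′ to 3′ along the gene, with each CG dinucleotide in capitals. Hoxa7 (chr6:52218574-52218823, minus strand) and Hoxa9 (chr6:52227371-52227620, minus strand) are the neighbours that rose together, Cdx2 (chr5:147307250-147307499, minus strand) rose with them, and Bcl10 (chr3:145924012-145924261, plus strand) and Gng5 (chr3:146499586-146499835, plus strand) lie in the block of chromosome 3 described below.
Hoxa7: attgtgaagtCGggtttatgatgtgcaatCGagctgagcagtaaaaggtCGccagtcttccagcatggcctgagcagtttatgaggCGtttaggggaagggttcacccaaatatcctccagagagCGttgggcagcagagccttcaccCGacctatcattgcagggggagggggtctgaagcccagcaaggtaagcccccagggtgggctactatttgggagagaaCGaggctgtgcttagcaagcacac
Hoxa9: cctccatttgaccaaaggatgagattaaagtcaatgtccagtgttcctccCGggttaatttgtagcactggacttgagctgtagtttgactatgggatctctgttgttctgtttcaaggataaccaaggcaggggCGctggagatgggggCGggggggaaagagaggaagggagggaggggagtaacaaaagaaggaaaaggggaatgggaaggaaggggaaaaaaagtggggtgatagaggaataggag
Cdx2: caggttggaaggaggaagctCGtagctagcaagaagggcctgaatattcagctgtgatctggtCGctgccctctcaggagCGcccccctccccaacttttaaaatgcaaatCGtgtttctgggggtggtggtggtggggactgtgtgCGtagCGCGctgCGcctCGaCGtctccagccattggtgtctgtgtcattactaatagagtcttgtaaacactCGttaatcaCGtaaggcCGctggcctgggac
Bcl10: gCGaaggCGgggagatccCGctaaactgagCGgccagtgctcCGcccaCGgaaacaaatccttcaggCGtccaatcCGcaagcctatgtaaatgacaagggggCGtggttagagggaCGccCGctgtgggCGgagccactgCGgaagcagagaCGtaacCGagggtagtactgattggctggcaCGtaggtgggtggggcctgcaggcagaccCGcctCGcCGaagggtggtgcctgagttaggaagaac
Gng5: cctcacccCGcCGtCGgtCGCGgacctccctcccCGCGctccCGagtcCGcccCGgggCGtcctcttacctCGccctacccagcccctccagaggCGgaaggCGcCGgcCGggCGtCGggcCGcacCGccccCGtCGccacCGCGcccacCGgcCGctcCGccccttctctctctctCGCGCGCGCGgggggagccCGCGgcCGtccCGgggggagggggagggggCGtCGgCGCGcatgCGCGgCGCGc

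The genes that moved did not share a CpG content. These windows hold 7 CG dinucleotides for Hoxa7, 3 for Hoxa9, 13 for Cdx2, 19 for Bcl10 and 44 for Gng5, counts reached or passed by 46.3%, 71%, 31.5%, 19.7% and 0.539% of 32841 promoter windows of the same length. The median over all windows was 6, and over the windows of tested genes 16. For the called genes with a window in RefSeq the median was 13 in those that rose (14 of 19 genes matched), 19.5 in the distal chromosome 3 genes (16 of 20 matched) and 12 in the other genes that fell (28 of 40 matched). In each of these sets the lowest count was 1, and the highest were 29, 44 and 45. The search read CG alone, which is the same on both strands.

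Outside these sets the genes that rose were mixed in function. Gm694 had the lowest adjusted p of the rises. It was at 3.55, 4.37 and 4.83 FPKM in WT and at 13.5, 11.1 and 24.8 FPKM in KO (1.66, SE 0.19, adjusted p = 4e-05, and 0.186 in the mESC libraries alone). Of the rises described here it alone was also called with a pseudocount of 0.1 (adjusted p = 0.0434). Osm, the cytokine oncostatin M of the interleukin-6 family, rose from 6.30, 6.97 and 5.73 FPKM to 11.0, 12.2 and 15.8 FPKM (0.92, SE 0.14, adjusted p = 0.00121). Neither gene's libraries overlapped.

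Prss45 (0.89, adjusted p = 0.0236) and Prss42 (0.82, adjusted p = 0.0165), neighbouring serine protease genes best known in testis, went from means of 1.52 and 3.17 FPKM to 3.74 and 6.30 FPKM. Cd2, an adhesion molecule of T cells (0.82, adjusted p = 0.0392), went from 3.13 ± 1.01 to 6.24 ± 1.31 FPKM, and Nags, which makes the activator of the urea cycle's first enzyme (0.78, adjusted p = 0.0177), went from 0.742 ± 0.309 to 2.01 ± 0.626 FPKM, so that it reached the level for testing only through KO. Fkbp6, an immunophilin needed in meiosis and for the piRNA pathway, was at 11.1, 14.1 and 12.997 FPKM in WT and at 17.4, 21.6 and 29.1 FPKM in KO (0.76, adjusted p = 0.0214). Of the 6 fits that left out 1 library, Cd2 lost the call in 5, Prss45, Nags and Fkbp6 in 3 each and Prss42 in 2. Fkbp6 was the only called gene among 29 tested germline genes that DNA methylation silences, whose median was 0.03 (0.171% of all tested genes were called higher). Dazl, an RNA-binding protein of germ cells, was at 37.4 to 56.7 FPKM in WT and 53.7 to 91.2 FPKM in KO (0.54, adjusted p = 0.517).

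Among the falls, H19 and Dnmt3l were the largest beside that of Smchd1. H19, an imprinted noncoding RNA expressed from the maternal copy, was at 10.4, 17.6 and 4.48 FPKM in WT and at 1.61, 1.19 and 0.879 FPKM in KO, a mean 0.113 of that in WT (-2.25, SE 0.38, adjusted p = 0.00582). All KO libraries were below all WT libraries, which themselves spread widely, and with a weight for each stage the adjusted p was 0.0812. H19 was the only called gene of 49 tested imprinted genes, whose median was -0.04, with 21 above 0 and 28 below (0.54% of all tested genes were called lower). Sgce, an imprinted sarcoglycan, came next in size (-0.74, adjusted p = 0.32, and 0.00443 with the replicate block), with WT 1 at 7.97 FPKM and the other 5 libraries between 1.10 and 2.75 FPKM.

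Dnmt3l, the cofactor that stimulates the de novo DNA methyltransferases, was at 45.7, 62.7 and 35.01 FPKM in WT and at 18.1, 19.5 and 9.48 FPKM in KO (-1.57, SE 0.23, adjusted p = 0.00121), 0.328 of the WT mean and without overlap. Its locus overlaps Aire, so reads could have been counted for either. It was the only called gene of the 22 tested in the list of DNA methylation factors, whose median was 0.02 (0.54% of all tested genes were called lower). Dppa3, a factor that protects DNA from methylation, lay at the other end of that list (0.43, adjusted p = 0.732) and Gadd45a, a stress-induced gene tied to demethylation, was at -0.46 (adjusted p = 0.524).

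Both called members of the trophoblast list moved in opposite directions, Cdx2 upwards (0.171% of all tested genes) and Krt18 downwards (0.54%). Krt18, a keratin of simple epithelia and of the trophectoderm, was at 8.81, 9.92 and 6.02 FPKM in WT and at 3.25, 1.72 and 2.36 FPKM in KO (-1.43, SE 0.24, adjusted p = 0.00469, and 0.0748 with a weight for each stage). Its filament partner Krt8 lay at 2.87, 4.98 and 2.52 FPKM against 1.48, 1.15 and 1.03 FPKM, also without overlap, but did not pass (-0.97, adjusted p = 0.0635, and 0.0482 with the replicate block). The other 6 of the 8 tested trophoblast genes, among them Eomes (-0.05) and Tfap2c (0.20), were not called. Summed over the 8 genes the list stood at 60.3 to 70.7 FPKM in WT and 71.1 to 76.1 FPKM in KO, and without Cdx2 at 54.8 to 63.8 FPKM in WT and 49.2 to 61.1 FPKM in KO, which overlap. Among the list's genes below the level for testing, the fit with no filter called Gata3, a trophectoderm factor, lower (means of 1.26 FPKM in WT and 0.385 FPKM in KO, adjusted p = 0.0432, with 0.677% of the genes in that fit called lower). The placental lactogen Prl3d1 and the spongiotrophoblast marker Tpbpa were listed at 0 in all 6 libraries.

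Ramp3, a partner of calcitonin-family receptors, was at 2.45, 2.61 and 1.67 FPKM in WT and at 0.424, 0.403 and 0.462 FPKM in KO (-1.17, SE 0.18, adjusted p = 0.00121). Pdpn, the mucin-like glycoprotein podoplanin, went from 37.5, 21.6 and 19.6 FPKM to 13.4, 9.97 and 9.47 FPKM (-1.15, SE 0.20, adjusted p = 0.00605). Ly6k, a GPI-anchored protein of the LY6 family, went from 9.42, 6.10 and 7.06 FPKM to 3.03, 2.16 and 1.65 FPKM (-1.38, SE 0.15, adjusted p = 4e-05). The KO libraries of all 3 genes lay below all WT libraries, and none of the 3 calls was lost when 1 library was left out. With a pseudocount of 0.1 Ly6k lost the call (adjusted p = 0.0992), while Ramp3 (0.00654) and Pdpn (0.0076) kept it. With a KO mean of 0.43 FPKM, Ramp3 reached the level for testing only through WT.

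Other falls depended more on single libraries. Anxa2, a calcium-dependent membrane-binding annexin (-1.35, adjusted p = 0.0428), Gng3, a G-protein gamma subunit whose locus overlaps Bscl2 (-1.06, adjusted p = 0.0177), Slco4a1, an organic anion transporter (-1.05, adjusted p = 0.0291), and Rhbdl2, a rhomboid protease (-1.04, adjusted p = 0.0213), each lost the call in 3 or 4 of the 6 fits that left out 1 library. Their WT means were 14.6, 8.05, 3.02 and 2.26 FPKM and their KO means 5.24, 3.39, 0.884 and 0.648 FPKM, so that Slco4a1 and Rhbdl2 reached the level for testing only through WT.

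The list of genes that mark the 2-cell-like state, a small and changing share of mESCs that express genes of the 2-cell embryo, had 7 tested members, 2 of them called lower (0.54% of all tested genes) and 6 below 0, with a median of -0.33. Tmem92 was at 3.32, 0.206 and 2.02 FPKM in WT and at 0.235, 0.112 and 0.119 FPKM in KO (-1.12, SE 0.26, adjusted p = 0.0442), WT 2 lying within the KO range. Gm8300 was at 1.61, 0.981 and 2.29 FPKM in WT and at 0.129, 0.738 and 0.423 FPKM in KO (-0.87, SE 0.16, adjusted p = 0.0109). Gm8300 has near-identical copies close by on chromosome 12, of which Gm2022 (-0.97, adjusted p = 0.00582) and Gm5039 (-0.83, adjusted p = 0.00605) were also called lower, so the 3 may share reads and are uncertain as separate genes. Below the level for testing the list held 31 more entries, 11 of them at 0 in all 6 libraries. Of the 20 others 19 had the higher mean in WT. The share over all genes below that level was not computed. Among those above 0 it was 8 of 9 in the fibroblast list and 10 of 24 in the Hox list. A fit with no filter on low values called 6 of the 20 lower and none higher (0.677% of the genes in that fit were called lower). Among them were Dux, the transcription factor that starts this programme, at a mean of 0.850 FPKM in WT and 0.0937 FPKM in KO (adjusted p = 0.0048), and Zscan4f (0.575 and 0.185 FPKM, adjusted p = 0.0178), both with near-identical copies. Tmem92, Gm8300 and Gm2022 had KO means under 1 FPKM and reached the level for testing only through WT, where they were high. Tmem92 lost the call in 3 of the 6 fits without 1 library and Gm8300 in 1, and both lost it with a weight for each stage (adjusted p = 0.104 and 0.0523) and with a pseudocount of 0.1 (0.123 and 0.173). In bulk RNA, fewer cells in this state and less RNA per cell cannot be told apart.

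The largest group of falls was defined by position. In 10-Mb windows of the mm9 genome with at least 10 tested genes, 228 in all, the lowest medians belonged to the end of chromosome 3, -0.69 for 140 to 150 Mb (21 genes) and -0.52 for 150 to 160 Mb (18 genes). All other windows lay between -0.20 and 0.19. The segment was delimited after its values had been seen, so the counts that follow are a description.

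**Figure D2:**
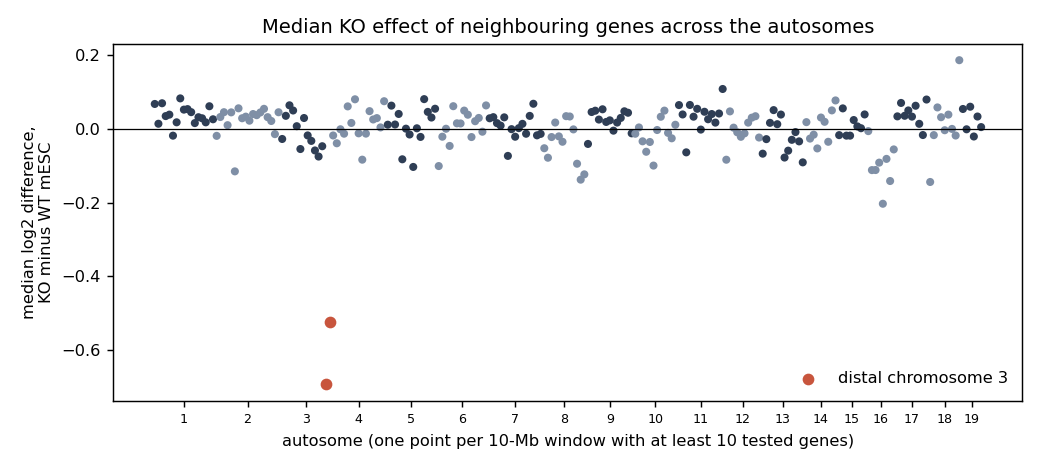
Median log2 difference, KO minus WT mESC, of the tested genes in each of 228 windows of 10 Mb, in order along the autosomes, with the distal chromosome 3 windows in red. Both windows at the end of chromosome 3, at -0.69 and -0.52, stand below all others, which lie between -0.20 and 0.19.

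Of the 39 tested genes in the segment 38 lay below 0, 20 were called lower (0.54% of all tested genes) and 30 had every KO library below every WT library (5.73%). The median KO level was 0.615 of that in WT. By library the median of the 39 genes, relative to the WT mean, was -0.66, -0.60 and -0.69 in KO 1, 2 and 3 and -0.01, 0.01 and 0.04 in the WT libraries, so every KO library stood clear of every WT library. The 481 tested genes nearer the centromere on the same chromosome had a median of -0.01, and the 34 between 130 and 140 Mb a median of -0.05.

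The step at the start of the segment lay between Rap1gds1 and Pdlim5. Rap1gds1, an exchange factor for small GTPases and the last tested gene before 140 Mb, was at 12.98 to 13.6 FPKM in WT and 11.6 to 12.1 FPKM in KO, without overlap (-0.17, adjusted p = 0.674), and was called lower at day 9 (-0.46, adjusted p = 0.00642). The next tested gene, Pdlim5 (mm9, chr3:141902549-142058660), a PDZ and LIM domain protein, was at 9.45, 9.99 and 9.04 FPKM in WT and at 5.20, 5.56 and 5.34 FPKM in KO (-0.72, SE 0.14, adjusted p = 0.0109). At the other end Wls (mm9, chr3:159502659-159598139), which carries Wnt ligands to the cell surface, was the last tested gene of the chromosome. It was at 10.9, 7.99 and 9.05 FPKM in WT and at 5.22, 2.81 and 4.5003 FPKM in KO (-1.01, SE 0.14, adjusted p = 0.00105).

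Between them the genes shared no one function. Bcl10, an adaptor in NF-κB signalling, was at 25.6, 22.1 and 24.4 FPKM in WT and at 12.1, 10.8 and 11.5 FPKM in KO, 0.477 of the WT mean (-1.01, SE 0.12, adjusted p = 0.000172). Gng5, a G-protein gamma subunit and the most abundant called gene of the segment, was at 367, 374 and 448 FPKM in WT and at 206, 199 and 219 FPKM in KO (-0.92, SE 0.18, adjusted p = 0.0127). Odf2l, named for its likeness to a sperm tail protein, had the largest fall among the called genes of the segment, from 7.89, 5.29 and 6.50 FPKM to 2.52, 2.56 and 1.02 FPKM (-1.35, SE 0.20, adjusted p = 0.00121).

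The called genes of the segment also included Prkacb, a catalytic subunit of protein kinase A (-0.68, adjusted p = 0.00744), Rabggtb, a subunit of the enzyme that adds lipids to Rab proteins, counted with Snord45c inside it (-0.78, adjusted p = 0.0135), Znhit6, a box C/D snoRNP assembly factor (-0.74, adjusted p = 0.00121), and Acadm, a dehydrogenase of fatty acid oxidation (-0.66, adjusted p = 0.0236). Their KO means were between 0.573 and 0.628 of the WT means. The exception above 0 was Lmo4, a LIM-only transcriptional cofactor (0.04), and Fubp1, a single-stranded DNA-binding protein, was near 0 as well (-0.09).

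**Figure D3:**
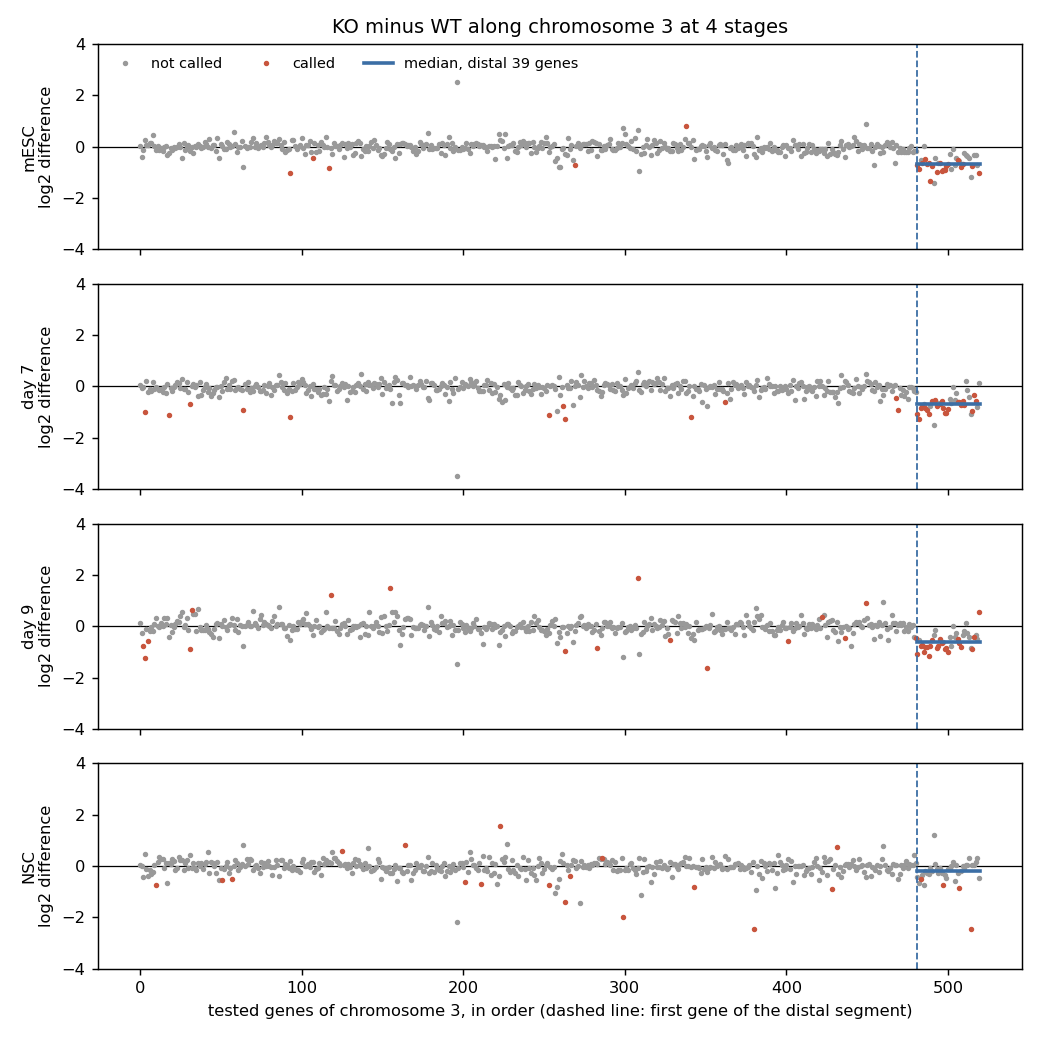
Log2 difference, KO minus WT, of each tested gene of chromosome 3 in order along the chromosome, with panels from top to bottom for mESCs, day 7, day 9 and NSCs. Red points are genes called in that stage, the dashed line marks the start of the distal segment and the blue bar its median, which was -0.66, -0.70, -0.63 and -0.19.

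The same segment was low at day 7 and day 9 of differentiation, in libraries that had no part in delimiting it although they come from the same KO line. The median of the 39 genes was -0.70 at day 7, with 24 called lower (1.67% of all tested genes), and -0.63 at day 9, with 21 called lower (2.31%). In NSCs the median was -0.19 with 4 called lower (2.86%). By library it was -0.19, -0.19 and -0.12 in KO NSCs and 0.18, 0.01 and -0.13 in WT NSCs, so that WT 3 lay within the KO range. Of the 20 genes called in mESCs 18 were called lower at day 7, 16 at day 9 and 1 in NSCs. The last of them along the chromosome, Wls, was at 0.13 at day 7 and was called higher at day 9 (0.56, adjusted p = 0.0288). A test of the difference between the KO effects of mESCs and NSCs called 4 of the 39 genes, all lower in mESCs (0.901% of all tested genes).

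The segment kept its direction under other settings. Under the 15 alternatives to the fit, between 36 and 39 of its genes lay below 0 with a median between -0.70 and -0.64, while the number called lower ran from 0 in the mESC libraries alone and 7 with a weight for each stage to 24 with the replicate block. As each genotype is 1 line, the mutation and other differences between the lines cannot be told apart here.

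Outside this segment, no other chromosome moved as a unit to a like degree. Chromosome 16 had the lowest median, -0.10 over 361 genes, with 271 below 0 and 3 called lower (0.54% of all tested genes). By library it was -0.13, -0.09 and -0.07 in KO mESCs and -0.01, -0.03 and 0.04 in WT mESCs, a small shift that did not overlap. Every KO library lay below every WT library for 49 of the 361 genes and above for 9 (5.73% and 5.49% of all tested genes). The median of chromosome 16 was -0.135 at day 7, -0.151 at day 9 and 0 in NSCs.

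The difference between the lines in mESCs was next set against that in the later stages on the same 11103 genes, on which 251 genes were called at day 7 (2.26%), 430 at day 9 (3.87%) and 512 in NSCs (4.61%). A test of the mESC difference minus the mean difference of the 3 later stages called 91 genes (0.82%), 42 higher (0.378%) and 49 lower (0.441%). That test shares its mESC libraries with the mESC comparison, and for a gene that is silent later it restates the mESC difference. Of the 19 genes that rose in mESCs 13 were called in it, of the 40 that fell outside the distal chromosome 3 segment 17, and of the 20 in the segment 1, Wls.

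Cdx2 rose by 1.30 in KO mESCs but fell by 2.33 at day 7 (adjusted p = 2.74e-07), a difference of 2.13 from the mean later effect (SE 0.22, adjusted p = 3.79e-05). Mira was lower in KO cells at day 7 (-1.41, adjusted p = 0.0286) and day 9 (-1.39, adjusted p = 0.0226) and higher in NSCs (2.14, adjusted p = 0.000583), and Hoxa7 was higher in KO NSCs too (1.41, adjusted p = 0.00368), and at -0.41 at day 7 (adjusted p = 0.648) and -0.91 at day 9 (adjusted p = 0.0773). Hoxa9 and Hoxa10 were not called at any later stage, with differences between -0.25 and 0.11 and means of at most 0.2 FPKM there.

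**Figure D4:**
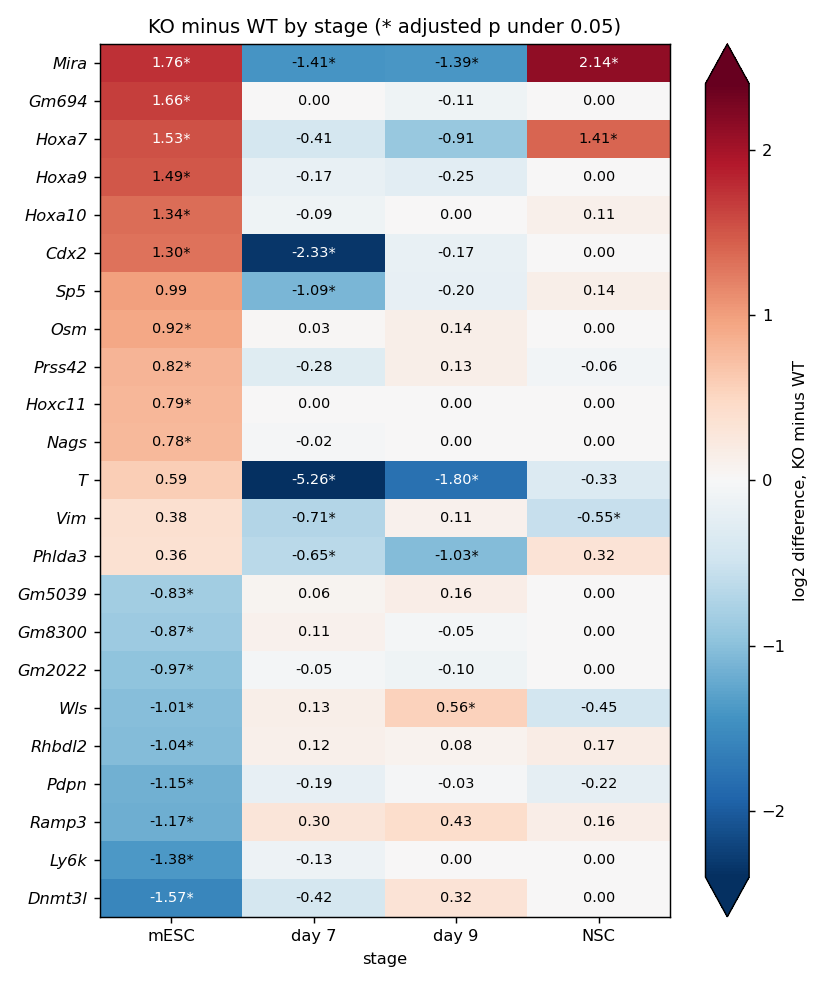
Log2 difference, KO minus WT, by stage (mESCs, day 7, day 9, NSCs) for the 23 named genes whose mESC difference itself differed from the mean of the later stages. Red is higher and blue lower in KO cells, colours end at the limits of the bar, and a star marks an adjusted p under 0.05. All but Sp5, T, Vim and Phlda3 carry a star in mESCs. Cdx2 and T are among the genes with opposite signs in mESCs and at day 7, as are Mira, Sp5, Vim and Phlda3.

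Dnmt3l fell in mESCs (-1.57) and was at -0.42 at day 7, 0.32 at day 9 and 0.00 in NSCs, none of them called, a difference of -1.54 (adjusted p = 0.00463). Ly6k, Ramp3, Pdpn and Rhbdl2 were likewise called lower in mESCs and at no later stage, with differences from the mean later effect between -1.46 and -0.998. Of these Ly6k and Rhbdl2 were under 1 FPKM at every later stage, Ramp3 reached a mean of 3.52 FPKM and Pdpn one of 76.4 FPKM. Krt18 was different, with falls of 1.43 in mESCs, 1.44 at day 7 (adjusted p = 0.00138) and 1.23 at day 9 (adjusted p = 0.00387), as was H19, which fell by 2.25 in mESCs and by 1.80 at day 9 (adjusted p = 0.00835) and was at -1.16 at day 7 (adjusted p = 0.144). In NSCs Krt18 was at -0.07 (adjusted p = 0.971) and H19 at -0.31 (adjusted p = 0.801).

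Most of the gene groups that could be asked about in these cells held no called gene. None was called among 30 markers of naive pluripotency (median 0.08), 22 of core and primed pluripotency (0.08), 34 Polycomb genes (0.02), 24 genes of heterochromatin and the lamina (0.07), 17 p53 targets (0.11) or 17 targets and feedback regulators of ERK (-0.00395), as judged by limma, against 0.712% over all tested genes. At an unadjusted p under 0.05 these 6 lists held 3, 6, 2, 1, 1 and 2 genes in that order, against 8.66% of all tested genes. The core and primed list, with 6 of 22 (4 higher and 2 lower), lay above that share. Gbx2, a homeobox gene of the naive state, had the largest difference among them, at 7.78, 13.9 and 9.15 FPKM in WT and at 26.4, 15.7 and 20.9 FPKM in KO (0.97, SE 0.29, adjusted p = 0.168), without overlap. In the list of SMC proteins and the SMCHD1 partner Lrif1, listed under its older name 4933421E11Rik (-0.35, adjusted p = 0.671), Smchd1 was the only called gene of 24.

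**Figure D5:**
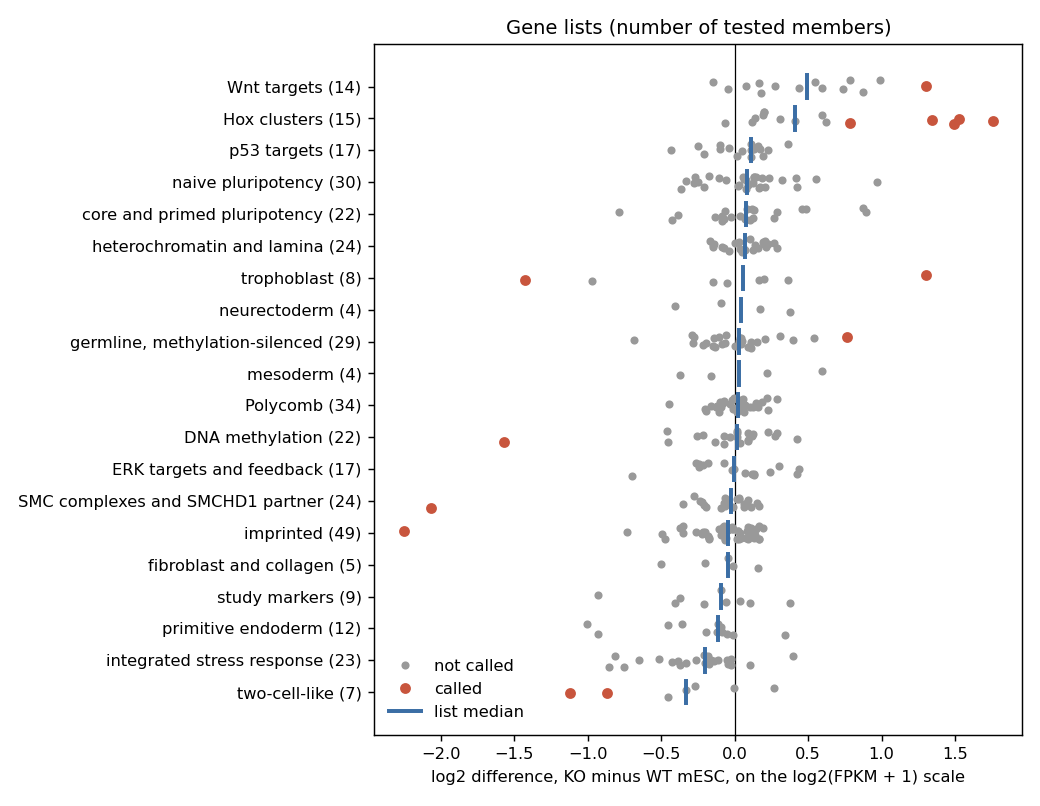
Log2 difference, KO minus WT mESC, on the log2(FPKM + 1) scale for every tested member of 20 gene lists, ordered by median (vertical bars), with the number of tested members in brackets. Red points are called genes. Wnt targets (median 0.49) and Hox genes (0.41) lie furthest to the right and 2-cell-like genes (-0.33) furthest to the left.

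Of the clustered protocadherins, known targets of SMCHD1, a single entry that joins the Pcdha and Pcdhg genes was tested. The locus of this entry overlaps Taf7, Slc25a2 and several Pcdhb genes, so it could hold reads of these. The joined entry was at 19.3, 20.8 and 20.5 FPKM in WT and at 25.2, 24.5 and 23.2 FPKM in KO, every KO library above every WT library, but did not pass (0.25, SE 0.11, adjusted p = 0.452). All 22 Pcdhb genes were below the level for testing, 15 of them at 0 in all 6 libraries and none above 0.159 FPKM.

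Of the 12 tested genes of the primitive endoderm list 11 lay below 0 (median -0.12), led by the basement membrane collagens Col4a2 and Col4a1. Col4a2 was at 17.1, 5.92 and 8.59 FPKM in WT and 7.46, 3.00 and 3.37 FPKM in KO (-1.01, adjusted p = 0.128, and 0.00265 with the replicate block). Col4a1 was at 28.0, 14.2 and 17.3 FPKM in WT and 14.4, 7.88 and 7.49 FPKM in KO (-0.93, adjusted p = 0.0845, and 0.00908 with the block). Summed over the 12 genes, WT 1 stood at 469 FPKM, WT 2 and WT 3 at 389 FPKM each and the KO libraries at 363 to 371 FPKM. Of the 23 tested genes of the integrated stress response 21 lay below 0 (median -0.20, none at an unadjusted p under 0.05). There WT 1 stood apart, with a summed level of 3224 FPKM against 1937 to 2293 FPKM in the other 5 libraries, and without it the median was 0.07. Chac1, a stress-induced glutathione-degrading enzyme, was at 44.0 FPKM in WT 1 and at 1.55 to 8.69 FPKM in the others (-0.86, adjusted p = 0.874).

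The smaller lists of other cell types were also without calls. The 4 tested genes of the mesoderm list had a median of 0.03, led by T, the mesoderm factor Brachyury, which Wnt signals induce (0.59, adjusted p = 0.787), the 4 of the neurectoderm list a median of 0.04, led by Olig2 (-0.41, adjusted p = 0.796), and the 5 of the fibroblast list a median of -0.05, led by Thy1 (-0.50, adjusted p = 0.559). Of 17 markers that the study used to follow differentiation 9 were tested and none called (median -0.09). Over all tested genes 0.712% were called.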

How the data were processed

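RNA sequencing libraries (Illumina Stranded mRNA Prep, 80-base single-end reads) were compared as gene-level FPKM values. Per the labels and the study's methods, the authors trimmed reads with Trim Galore 0.6.6, aligned them to mm9 with TopHat2 2.1.1, removed ribosomal RNA and X-linked reads, and computed and deposited FPKM with Cufflinks and Cuffdiff. Read totals, the strand setting and the scaling between libraries are not given in the sources used here, so depth is known only relatively, from the steps of the FPKM values of low genes. Among 36 deposited FPKM columns, 24 were used, and 12 that match no sample given here were not. Columns of the authors' own comparisons, which hold fold changes and p-values, were not used.

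Genes outside X and Y with a mean of at least 1 FPKM over the 6 mESC libraries were tested with limma 3.58.1 in R 4.3.3 on log2(FPKM + 1), so fold changes of low genes are understated. The fit held all 24 libraries as 8 groups, with trended and robust empirical Bayes moderation, two-sided tests, Benjamini-Hochberg adjustment over all 11103 genes, and genes under an adjusted p of 0.05 were called. The mESC effect was also set against the mean effect of the 3 later stages and, chosen after seeing the data, against that of NSCs. A single-gene exact permutation test of 3 against 3 libraries cannot go below a p of 0.1 and was not used. The code was tested on simulated data.

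Same-numbered WT and KO mESC libraries deviated together, with correlations of 0.29, 0.45 and 0.15 for numbers 1, 2 and 3. Each WT library correlated best with the KO library of its own number, and the reverse was not checked. By this check of the values the replicate number pairs the samples, most weakly for number 3. The labels do not say what a number marks. At most 0.2072% of the tested genes, values of 0 included, had identical values in any pair of mESC libraries.

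The genes named were Smchd1, the 12 largest rises and the 12 largest falls among called genes with a mean of at least 2 FPKM in the higher group, the called members of each gene list, and the 2 members of each list with the largest difference. Other genes, among them those of the chromosome 3 segment, were chosen after their values were seen. Members and lists were chosen with earlier results of these data known. Lists are described by counts and medians, without a set test. Alternatives were the pseudocount, the filter on low values, the scaling, the libraries fitted, the replicate block, the moderation, leaving out each mESC library and, added after seeing the data, a weight for each stage.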

Additional observations from a re-analysis of the deposited data

Results flagged for a closer look

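For 23 of the genes named here the KO minus WT difference in mESCs differed from the mean of those at day 7, day 9 and in NSCs by the limma test of that difference (adjusted p between 3.79e-05 and 0.0494). Each value below is the mESC difference minus the mean later difference on the log2(FPKM + 1) scale. For 11 of the 23 no later group had a mean of 1 FPKM or more, so the value restates the mESC difference of a gene that was nearly silent later.

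The genes above 1 FPKM in some later group with a value above 0 were T at 3.06, Cdx2 at 2.13, Mira at 1.98, Hoxa7 at 1.499, Sp5 at 1.37, Prss42 at 0.89, Phlda3, a p53 target, at 0.82 and Vim, the intermediate filament vimentin, at 0.76. Of these T, Sp5, Phlda3 and Vim were not called in mESCs. T was at -5.26 at day 7, with means of 102.5 FPKM in WT and 1.59 FPKM in KO (adjusted p = 7.86e-07). Those with a value below 0 were Dnmt3l at -1.54, Ramp3 at -1.46, Wls at -1.09 and Pdpn at -0.998.

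Among the genes under 1 FPKM later, the value was 1.70 for Gm694, 1.63 for Hoxa9, 1.34 for Hoxa10, 0.86 for Osm, 0.79 for Nags and 0.79 for Hoxc11. It was -1.34 for Ly6k, -1.16 for Rhbdl2, -0.92 for Gm2022, -0.91 for Gm5039 and -0.89 for Gm8300.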

How the results depend on the processing

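Each of the 27 called genes that the naming rule above picked kept its direction in mESCs under every alternative that was run. Called genes chosen after their values were seen, such as those of the chromosome 3 segment other than Odf2l, are not among these 27. Of 79 called genes in mESCs (19 higher, 60 lower) and 91 called in the comparison with later stages, the counts were 160 (48, 112) and 233 with no filter on low values, 51 (12, 39) and 56 with libraries scaled to the same sum, and 24 (7, 17) and 27 with a weight for each stage, added after seeing the data. In the 6 mESC libraries alone 1 gene was called (0 higher, 1 lower), with 593 at an unadjusted p under 0.05. A pseudocount of 0.1 gave 8 higher calls, 11.94% of its calls against 24.05%, and a filter over 24 libraries gave 148 for the comparison with later stages. Leaving out 1 library gave 39 to 164 calls, 5 to 47 higher, 32 to 117 lower, and 46 to 164 for the comparison with later stages. The cause was not tested. The medians of the DNA methylation, ERK, Polycomb, SMC, core and primed pluripotency, germline, stress response, mesoderm and neurectoderm lists took both signs over the alternatives.

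With the replicate number as a block the counts were 177 (57 higher, 120 lower) and 212, and all 79 calls were kept, those of the 27 genes picked by the naming rule included. Besides the genes given above with their block values, Dpep3 (-0.69, adjusted p = 0.32 without the block and 0.0161 with it) was also called with it. Of those 27, 16 lost the call in at least 1 fit without 1 library, 15 with a weight for each stage and 18 with a pseudocount of 0.1. The rule for testing left genes with a mean under 1 FPKM out of the main fit, and the fit with no filter on low values took them in. Depth is known only relatively, and small differences in them were not detectable.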

Other observations

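Of the 17 tested genes of the ERK list 6 (Fos, Egr1, Egr2, Ier2, Dusp6 and Spry2) had replicate 2 highest and replicate 3 lowest in both genotypes, and 11 did not. Fos, a subunit of the AP-1 transcription factor, was at 21.3, 26.5 and 0.337 FPKM in the WT libraries and at 21.4, 24.5 and 0.249 FPKM in the KO libraries (-0.07, limma adjusted p = 0.99). Egr1, a zinc-finger factor induced by ERK signalling, was at 14.3, 76.5 and 0.0739 FPKM in WT and at 14.9, 43.4 and 0.246 FPKM in KO (-0.18, adjusted p = 0.983). These genes were chosen after their values were seen.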
